A study of Dorcoceras hygrometricum with 9 samples.

Results

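The desiccated leaf of Boea hygrometrica, labelled Dorcoceras hygrometricum, was compared with the hydrated leaf in 6 of the 9 RNA-sequencing libraries of the series, chosen by their titles. The 3 libraries titled 10% RWC came from leaves dried to 10% of relative water content (RWC), and the 3 titled HD came from hydrated leaves. The other 3 libraries, from leaves dried to 70% RWC, entered the fit for its estimate of spread and give the level on the way to desiccation. All 9 are leaf tissue of potted plants, and the design text calls the 3 libraries of a state biological replicates. No source used here gives genotype, plant age, drying time or the number of plants behind a library, so p-values measure the spread between libraries.

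Resurrection plants are flowering plants whose leaves survive near-complete loss of water and resume activity after watering. As such a leaf dries it stops photosynthesis and growth and accumulates protective proteins and sugars. Late embryogenesis abundant (LEA) proteins and dehydrins are hydrophilic proteins, best known from drying seeds, that help keep proteins and membranes intact, and early light-induced proteins (ELIPs) are chloroplast proteins that bind pigments under light stress. Abscisic acid (ABA) is the hormone that carries much of the drought signal. Transcripts stored in the dry state can be used when water returns.

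The 14585 genes with enough reads for a test, of 24182 with any read in the series, held 6654601 to 7423965 reads per library, or 99.8% of those uniquely aligned. Gene levels are given in CPM, the reads of a gene scaled to library size, which rise with transcript length as well as abundance, so levels are compared between states and not between genes. Within both states replicates 2 and 3 were closer to each other than to replicate 1: the mean squared difference per gene, relative to that of counting error alone, was 1.39 for hydrated and 1.36 for 10% RWC replicates 2 and 3 and 5.04 to 8.68 for pairs with replicate 1. The first principal component of the 6 libraries separated the states and held 96.7% of the variance, against 1.32% for the second, which separated replicate 1 from the others. Among genes of matched read counts, the percent of a gene covered by reads was close in both states. At 10 to 30 reads the median was 49.3 ± 0.866% in hydrated and 48.1 ± 0.756% in desiccated libraries (exact permutation p = 0.3, two-sided), and at 100 to 300 reads it was 93.8 ± 0.144% and 94.5 ± 0.355% (p = 0.1, the smallest that 3 against 3 libraries can give).

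Most of the leaf's measured genes differed between the states relative to library size, and gains and losses so scaled were nearly balanced in number. Of 14585 tested genes, 12235 (83.9%) were called at a Benjamini-Hochberg adjusted p under 0.05 by edgeR's quasi-likelihood test, 6177 (42.4%) higher and 6058 (41.5%) lower in the desiccated leaf. The groups did not overlap for 12349 genes (84.7%). The median log2 fold change over all tested genes was 0.0082, with quartiles at -1.37 and 1.05. Scaling between libraries centres the fold changes, so the even split and the median near 0 follow in part from it. They do not show gain or loss in absolute amount. Of the calls, 50.5% were higher with the TMM scaling used here, 48.2% with RLE scaling and 49.8% with total counts. A call alone separated little, because the median gene's 95% interval reached only 0.29 to either side on the log2 scale. Genes were therefore sorted by size. Those called at least 2-fold higher numbered 3784 (25.9%), those called at least 2-fold lower 4332 (29.7%), and those held within 2-fold, meaning that the whole 95% interval of the log2 fold change lay between -1 and 1, numbered 4609 (31.6%). The remaining 1860 genes (12.8%) met none of these rules. Among the held genes 2691 (18.5% of all tested) were also called, with small changes. Within 1.5-fold, 1980 genes (13.6%) were held. With replicates 2 and 3 alone, 12457 genes were called and 4674 were held within 2-fold. Those replicates differed by little more than counting error, so this fit cannot check the spread between libraries. With replicates 2 and 3 of each state summed as 1 sample beside replicate 1, 12103 genes were called and 4177 were held.

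**Figure D1:**
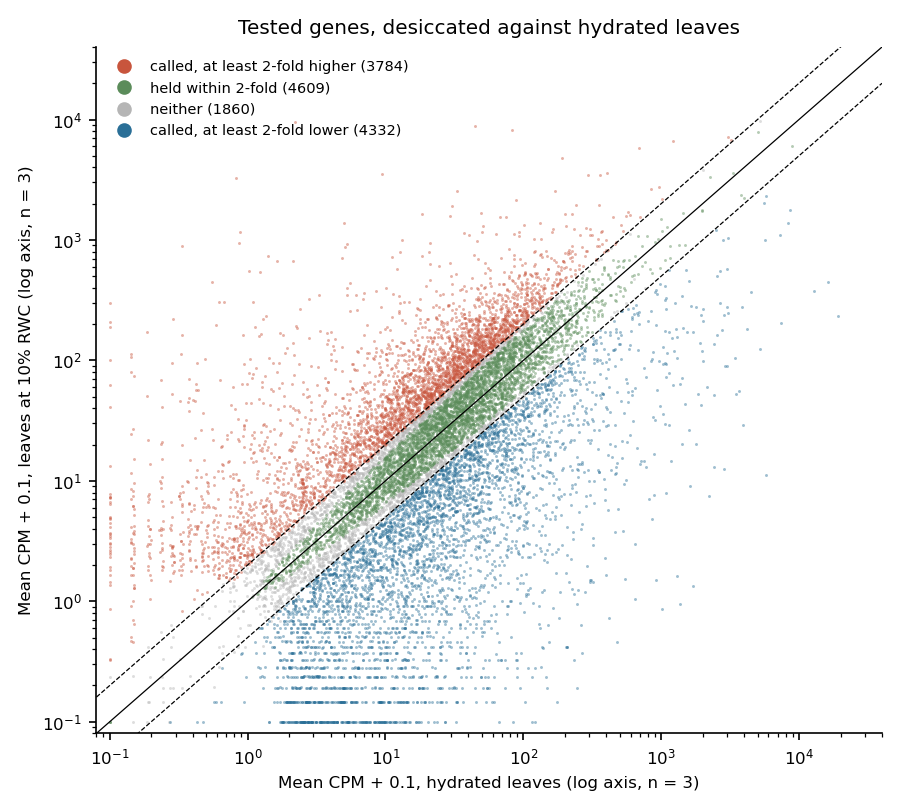
Mean level of every tested gene in hydrated leaves (horizontal axis, CPM + 0.1, log axis) against its mean level in leaves at 10% RWC (vertical axis, same scale), 3 libraries per state. Colours mark the 3784 genes called at least 2-fold higher, the 4332 called at least 2-fold lower, the 4609 held within 2-fold along the diagonal and the 1860 others.

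The genes that gained made up the larger part of the desiccated leaf's reads. The 3784 genes of the gaining class held 13.1 ± 0.533% of a hydrated library's reads (SD, n = 3), 39.98 ± 0.411% at 70% RWC and 54.5 ± 0.195% at 10% RWC. The 4332 genes of the losing class went from 51.5 ± 1.47% through 20.03 ± 0.224% to 7.28 ± 0.0298%. The 4609 held genes took 29.6 ± 0.905%, 33.0 ± 0.596% and 30.8 ± 0.236%. Since the classes were formed on the difference between hydrated and 10% RWC, the direction of these shares follows from the sorting, and only their sizes and the 70% RWC values add to it. At 70% RWC the gaining and losing classes stood between their hydrated and desiccated shares.

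**Figure D2:**
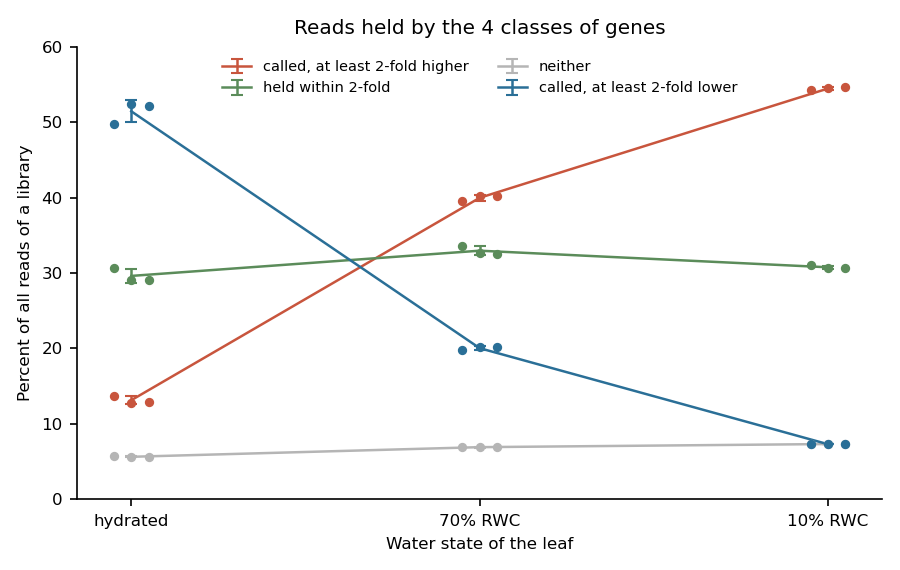
Percent of all reads of a library (vertical axis) held by genes called at least 2-fold higher, called at least 2-fold lower, held within 2-fold and the remainder, for each state. Points are the 3 libraries of a state: the gaining class stands at 13.1, 39.98 and 54.5% on average in hydrated, 70% RWC and 10% RWC leaves, and the losing class at 51.5, 20.03 and 7.28%.

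Reads were spread more evenly among genes in the dry leaf. The number of genes that together held 50% of the reads was 552, 469 and 475 in the hydrated libraries and 821, 782 and 786 in those at 10% RWC, so the groups did not overlap (498.7 ± 46.3 against 796.3 ± 21.5, exact permutation p = 0.1, the smallest possible here, two-sided). The 10 genes with the most reads held 10.3 ± 0.849% of hydrated and 7.73 ± 0.287% of desiccated libraries, and the 100 with the most held 31.3 ± 1.45% and 22.6 ± 0.654% (exact permutation p = 0.1 for each). The number of genes with any read was slightly lower in the dry leaf. It was 18436, 18563 and 18402 in the hydrated libraries and 18260, 18189 and 18324 at 10% RWC (exact permutation p = 0.1). Fewer cells of a type and less RNA per cell cannot be told apart in such bulk samples, and a share says nothing about the total RNA of the leaf.

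The described genes with the most reads were largely different ones in the 2 states. They are the 10 per state whose description names a protein rather than a hypothetical, unknown or unnamed one (an informative description), and so not exactly the 10 genes whose read share is given above. In hydrated leaves they were led by the small subunit of Rubisco, the enzyme that fixes carbon dioxide (Bhs5191_005). It gave 14873, 21475 and 21395 CPM in the 3 hydrated and 194, 258 and 244 CPM in the 3 desiccated libraries, a fall with a log2 fold change of -6.38 ± 0.26 (SE; adjusted p = 4.3e-08, edgeR's quasi-likelihood test, as for every adjusted p below). The lowest hydrated library, replicate 1, still stood far above every desiccated library. Rubisco activases, which keep the enzyme ready for its substrate, fell as well, Bhs7545_001 from 16114 ± 2196 to 449 ± 37.2 CPM (SD, n = 3; adjusted p = 1.1e-15, log2 fold change -5.17 ± 0.12) and Bhs151_047 from 12751 ± 1219.8 to 377 ± 38.4 CPM (adjusted p = 1.3e-15, log2 fold change -5.08 ± 0.12). The others of these 10 that fell were oxygen-evolving enhancer protein 1 (Bhs2039_003), a chlorophyll a/b binding protein (Bhs1817_007), the light-harvesting protein Lhcb1 (Bhs8864_002), a secretory peroxidase (Bhs14030_001), an extensin-like wall protein (Bhs71_004) and the gene matched to bdn1 (Bhs1119_057), with log2 fold changes from -5.18 to -1.33. Galactinol synthase 2 (Bhs17782_001), which starts the synthesis of raffinose-family sugars, was the exception. It gave 8623, 9356 and 8769.5 CPM in hydrated and 5675, 6314 and 6039 CPM in desiccated libraries and was held within 2-fold (adjusted p = 3.7e-07, log2 fold change -0.57 ± 0.067), so that it was among these 10 in both states.

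In desiccated leaves the 10 most-read genes with an informative description mixed newly gained transcripts with ones that were already abundant. A LEA protein of group 3 (Bhs152_037) gave 4.47, 0.710 and 1.18 CPM in hydrated and 8401, 10056 and 10151 CPM in desiccated libraries (adjusted p = 4.5e-09, log2 fold change 12.07 ± 0.36). The dehydrin Dh2 (Bhs1066_009) gave 81.9, 86.7 and 79.9 and 6945, 8909.9 and 8614 CPM (adjusted p = 4.5e-15, log2 fold change 6.62 ± 0.14). Both were far lower in every hydrated library than in any desiccated one. Granule-bound starch synthase 1 (Bhs1292_016), which makes amylose, rose from 1209 ± 25.2 to 6643 ± 227 CPM (adjusted p = 3.8e-16, log2 fold change 2.46 ± 0.064), and at 70% RWC it had stood at 1033 ± 40.3 CPM, below the hydrated level. The thiamine biosynthetic enzyme (Bhs771_040) rose from 406 ± 81.9 to 3628 ± 757 CPM (adjusted p = 1.1e-05, log2 fold change 3.16 ± 0.26). The gene matched to JMS10C05.2 (Bhs719_017), whose function the match does not give, rose from 690.2 ± 11.2 to 5759 ± 105 CPM (adjusted p = 1.9e-17, log2 fold change 3.06 ± 0.063). Smaller increases, with log2 fold changes of 0.91 to 1.23, brought a glycine-rich protein (Bhs4783_003), polyubiquitins UBQ4 (Bhs6_013) and 10 (Bhs261_018), which supply the tag for protein breakdown, and ACC oxidase (Bhs615_030), which makes ethylene, into the same 10.

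Protective proteins made up 6 of the 10 largest gains among genes with an informative description, the only ones ranked here. Genes without one, such as Bhs38803_001 and Bhs1209_012 below, had larger fitted changes than most of them. ELIP Bhs2978_003 had no read in any hydrated library and 268, 322 and 314 CPM in the desiccated ones, at least 2173-fold higher taking a floor of 3 summed hydrated reads (adjusted p = 4.4e-12). A second ELIP (Bhs474_011) gave 1.28, 0 and 0.882 CPM in hydrated and 3162, 3329 and 3241 CPM in desiccated libraries (adjusted p = 2.4e-15, log2 fold change 12.07 ± 0.21). At 70% RWC these ELIPs had reached 6.48 ± 2.12 and 357 ± 8.02 CPM (log2 fold changes of 5.54 and 3.18 from 70% to 10% RWC, a step in which 76.8% of all tested genes and both ELIPs were called). Beside the group 3 LEA protein, 3 further LEA genes stood among these 10. Bhs222_060 gave 0.128, 0.426 and 0.147 CPM in hydrated and 650.5, 1005 and 993 CPM in desiccated libraries (adjusted p = 2.0e-07, log2 fold change 11.80 ± 0.51). Bhs4_093 rose from 0.787 ± 0.878 to 1159.7 ± 193 CPM and Bhs31748_001 from 0.768 ± 0.330 to 942 ± 39.7 CPM. Unlike the ELIPs, these 3 LEA transcripts were near their final level at 70% RWC, with means of 787 ± 190.4, 1267 ± 144 and 1021 ± 117 CPM in the same order. The group 3 LEA gene Bhs152_037 was not, with 2830 ± 285 CPM at 70% RWC. It rose further to 10% RWC (adjusted p = 7.4e-05, log2 fold change 1.75).

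The other genes among these 10 increases were of other kinds. Thaumatin-like protein 1a (Bhs4423_002), a relative of antifungal defence proteins, had no hydrated read and 45.7, 74.9 and 65.2 CPM in desiccated libraries, at least 446-fold higher against the same floor (adjusted p = 6.0e-10). A vacuolar cation/proton exchanger (Bhs370_036), of a family that moves calcium and other cations into the vacuole, also had none and gave 39.0, 42.1 and 41.3 CPM, at least 295-fold higher (adjusted p = 2.5e-13). Both were low at 70% RWC, at 2.11 ± 0.304 and 0.729 ± 0.398 CPM. MOTHER of FT and TF 1 (Bhs568_033), which acts in ABA control of seed germination in Arabidopsis, had 1 read in the hydrated libraries and 92.3, 118 and 112 CPM in the desiccated ones (ratio of reads 2325, 95% counting interval 417 to 91856). ABA 8'-hydroxylase (Bhs9011_001), the enzyme that breaks down ABA, had 1 hydrated read and 74.0, 71.2 and 75.5 CPM (ratio 1596, interval 286 to 63075). These floors and intervals cover counting error only.

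**Figure D3:**
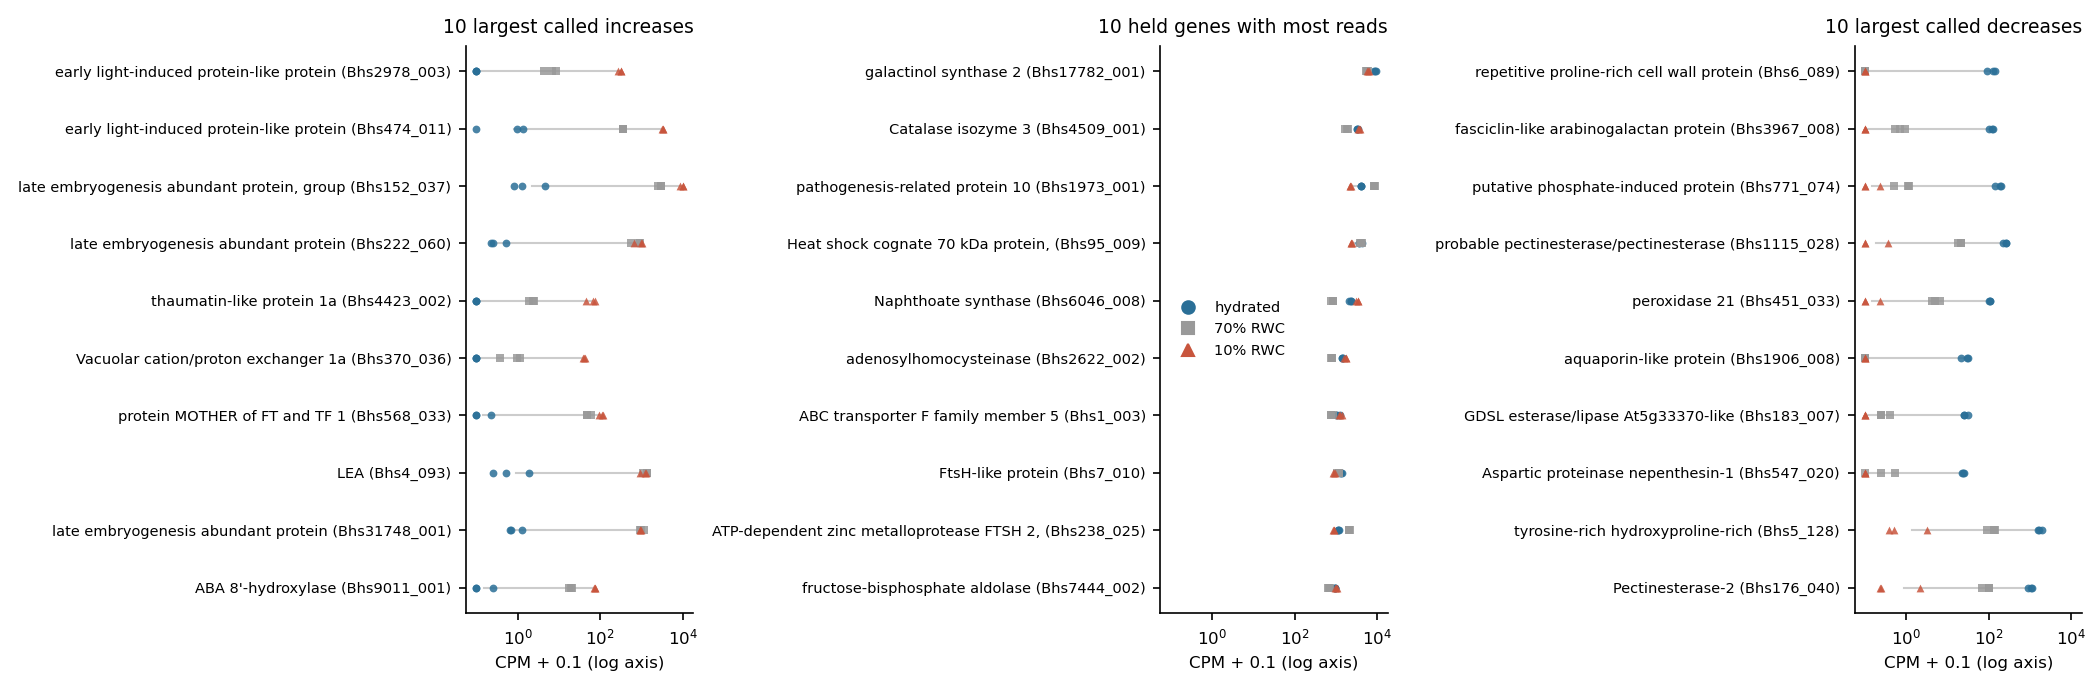
Level of each named gene in all 9 libraries (horizontal axis, CPM + 0.1, log axis) for the 10 largest called increases, the 10 genes held within 2-fold with the most reads and the 10 largest called decreases, all among genes with an informative description, with the 3 states as circles, squares and triangles. In the left and right panels the hydrated and 10% RWC libraries do not overlap, while in the middle panel they lie within 2-fold of each other on average.

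Most LEA proteins and all tested ELIPs rose, while other groups often linked with stress moved both ways. Of the 24 tested LEA proteins and dehydrins, 20 were called higher and 2 lower, beside 42.4% and 41.5% of all tested genes. Their median log2 fold change was 4.86 against 0.0082 over all genes. They held 0.154 ± 0.00748% of hydrated reads and 3.45 ± 0.362% of desiccated reads, after 6.42 ± 0.643% at 70% RWC. LEA 76 (Bhs152_040) shows that passing peak: it gave 658, 850.1 and 851 CPM in hydrated leaves, 7777 ± 1082 at 70% RWC and 889.9, 1152 and 1177 CPM at 10% RWC, back within 2-fold of the hydrated level. The 2 lower members were a LEA hydroxyproline-rich glycoprotein (Bhs1259_035, adjusted p = 1.9e-07, log2 fold change -1.87 ± 0.21) and a LEA-like protein (Bhs13579_001, adjusted p = 2.0e-04, log2 fold change -1.26 ± 0.25). The list leaves out the dehydrin bdn1 (Bhs1119_057), whose description gives that name alone, so these counts and shares do not cover it. Abundant in hydrated leaves, bdn1 fell from 5803 ± 746 to 2302 ± 130 CPM (adjusted p = 5.5e-11, log2 fold change -1.33 ± 0.082), after 10153 ± 226 CPM at 70% RWC. All 13 tested ELIPs were called at least 2-fold higher (median log2 fold change 7.22), beside 25.9% of all tested genes. The ELIP share of reads went from 0.00678 ± 0.000311% to 0.148 ± 0.00338% and 0.502 ± 0.0152%. The ELIP with the most hydrated reads (Bhs11779_003) rose from 35.6 ± 2.27 to 393 ± 15.0 CPM (adjusted p = 2.0e-17, log2 fold change 3.47 ± 0.072).

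Chaperones and antioxidant enzymes were more often called lower than higher, beside 41.5% lower and 42.4% higher over all tested genes. Of the 74 large heat shock proteins and chaperones, 24 were called higher and 37 lower (median log2 fold change -0.27). Heat shock protein 90 (Bhs7_048), a folding helper of signalling proteins, fell from 1417 ± 38.5 to 20.2 ± 3.35 CPM (adjusted p = 1.2e-18, log2 fold change -6.13 ± 0.097), while a DnaJ-like co-chaperone (Bhs7616_003) rose from 556 ± 25.1 to 1592 ± 36.9 CPM (adjusted p = 1.2e-13, log2 fold change 1.52 ± 0.060). Small heat shock proteins were few and divided: HSP18.1B (Bhs109_076) gave 234, 249.6 and 248 CPM in hydrated and 16.6, 12.9 and 17.8 CPM in desiccated libraries, and its neighbour HSP18.1A (Bhs109_079) 3.07, 2.98 and 2.79 and 6.92, 7.01 and 7.83 CPM. The first fell (adjusted p = 4.7e-15, log2 fold change -3.94 ± 0.11) and the second rose (adjusted p = 6.3e-06, log2 fold change 1.29 ± 0.19). Without an ARID-domain protein that shares the Hsp20 label, 2 of 6 small heat shock proteins were called higher and 3 lower, and the median turned from 0.17 to -1.69. These counts leave out Bhs109_078, matched to a small molecular heat shock protein, which was called at least 2-fold higher. Of 76 antioxidant enzymes, 18 were called higher, 43 lower and 28 held within 2-fold. A glutathione peroxidase (Bhs4_048), which removes lipid peroxides, rose from 84.96 ± 8.08 to 755 ± 19.1 CPM (adjusted p = 3.4e-16, log2 fold change 3.15 ± 0.081) after 1911 ± 139.7 CPM at 70% RWC, and a peroxiredoxin (Bhs18813_001), another peroxide-removing enzyme, fell from 567 ± 9.88 to 65.2 ± 2.50 CPM (adjusted p = 1.5e-17, log2 fold change -3.12 ± 0.063).

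Sugar enzymes followed no single direction, and nor did all tested genes, with 42.4% called higher and 41.5% lower. Sucrose synthase 2 (Bhs983_003) gave 91.8, 86.0 and 87.2 CPM in hydrated and 2172, 2161 and 2124 CPM in desiccated libraries (adjusted p = 7.2e-19, log2 fold change 4.61 ± 0.068), with 5508 ± 52.6 CPM at 70% RWC. Sucrose-phosphate synthase 1 (Bhs998_002), which makes the precursor of sucrose, rose from 59.1 ± 3.50 to 218 ± 3.75 CPM (adjusted p = 1.6e-14, log2 fold change 1.88 ± 0.064). Raffinose synthase (Bhs30_090) and stachyose synthase (Bhs33_062), the steps after galactinol, fell. Raffinose synthase gave 505, 582 and 581 CPM in hydrated and 10.1, 8.55 and 11.5 CPM in desiccated libraries (adjusted p = 5.2e-18, log2 fold change -5.78 ± 0.11), and stachyose synthase 668, 595 and 586 and 61.4, 54.0 and 52.8 CPM (adjusted p = 9.2e-17, log2 fold change -3.46 ± 0.081). Of the 13 genes of sucrose and raffinose-family synthesis, 4 were called higher and 8 lower (median -0.57). Of 10 trehalose synthesis genes, 6 were called higher and 2 lower. The trehalose-6-phosphate synthase Bhs6_077 rose from 2.70 ± 0.356 to 326 ± 10.1 CPM (adjusted p = 7.2e-19, log2 fold change 6.90 ± 0.10), with 24.0 ± 1.17 CPM at 70% RWC. Aldose reductase ALDRXV4 (Bhs1189_001), of a family that detoxifies aldehydes, rose from 2.02 ± 1.05 to 667 ± 32.3 CPM (adjusted p = 6.2e-18, log2 fold change 8.32 ± 0.15) and had been higher still at 70% RWC, at 2811 ± 53.2 CPM. Of 22 genes of aldehyde and aldo-keto detoxification, 8 were called higher and 13 lower (median -0.56). The tested oil body genes were a pair of neighbouring caleosins, calcium-binding peroxygenases of lipid droplets, and they moved apart. Bhs39_021 gave 33.0, 33.3 and 31.5 CPM in hydrated and 519, 535 and 519.9 CPM in desiccated libraries (adjusted p = 2.1e-18, log2 fold change 4.01 ± 0.068), with 1264 ± 36.0 CPM at 70% RWC. Bhs39_022 gave 23.5, 30.4 and 24.0 and 1.33, 2.80 and 1.35 CPM (adjusted p = 1.8e-11, log2 fold change -3.82 ± 0.22).

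Most tested genes of ABA signalling and most heat stress factors rose, where 42.4% of all tested genes were called higher and 41.5% lower. Of 45 genes of ABA synthesis and signalling, 33 were called higher and 8 lower (median 0.91). A protein phosphatase 2C (Bhs862_005), of the family that holds ABA signalling in check, gave 0.639, 0.284 and 0.441 CPM in hydrated and 469, 433 and 444 CPM in desiccated libraries (adjusted p = 6.2e-19, log2 fold change 9.87 ± 0.14). Zeaxanthin epoxidase (Bhs464_019), an early enzyme of ABA synthesis, fell from 576 ± 11.6 to 268 ± 2.24 CPM (adjusted p = 3.7e-12, log2 fold change -1.11 ± 0.056). Of 18 heat stress transcription factors, 15 were called higher and 3 lower (median 0.92). Bhs826_024 rose from 17.9 ± 2.28 to 203 ± 7.22 CPM (adjusted p = 1.4e-16, log2 fold change 3.50 ± 0.084), whereas an A-6b member (Bhs1617_012) fell from 143 ± 11.2 to 37.7 ± 3.04 CPM (adjusted p = 4.8e-13, log2 fold change -1.92 ± 0.084). Of 85 calcium sensors and kinases, 34 were called higher and 42 lower. At least 2-fold lower were 35 (41.2%, beside 29.7% of all tested genes), while the whole list held 0.415 ± 0.0128% of hydrated and 0.663 ± 0.00867% of desiccated reads. The CBL-interacting protein kinase Bhs1799_014, which relays calcium signals, rose from 225 ± 27.7 to 1646 ± 70.1 CPM (adjusted p = 1.3e-15, log2 fold change 2.87 ± 0.081), and its relative Bhs16815_001 fell from 247 ± 4.62 to 12.4 ± 2.15 CPM (adjusted p = 7.0e-17, log2 fold change -4.31 ± 0.098). Receptor-like kinases, which sense signals at the cell surface, were called lower in 104 and higher in 62 of 188 (median -0.97), and 20 of them were switched off by the rule given below. Yet the receptor-like kinase list held 0.709 ± 0.0134% of hydrated and 0.770 ± 0.00801% of desiccated reads.

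Genes of photosynthesis fell, where 41.5% of all tested genes were called lower, 29.7% at least 2-fold, and 42.4% higher. Of 30 tested genes of the photosystems and light harvesting, 26 were called at least 2-fold lower and 2 higher, with a median log2 fold change of -3.52. Their share of reads went from 6.41 ± 0.650% in hydrated leaves to 0.9499 ± 0.0706% at 70% RWC and 0.561 ± 0.0559% at 10% RWC. Mesophyll markers, which share members with this list, held 3.797 to 4.95% of hydrated and 0.0844 to 0.102% of desiccated reads, and their part in these changes was not tested. Oxygen-evolving enhancer protein 1, which stabilises the water-splitting complex, gave 7773, 8683 and 8401 CPM in hydrated and 1287, 1452 and 1382 CPM in desiccated libraries (adjusted p = 2.1e-15, log2 fold change -2.59 ± 0.076). Lhcb1, the main antenna protein of photosystem II, gave 5948, 7835 and 7932 and 933, 1213 and 1126 CPM (adjusted p = 6.6e-10, log2 fold change -2.73 ± 0.13). The members called higher were a fragment of the plastid-encoded photosystem II protein D2 (Bhs8765_001), which rose from 44.5 ± 5.74 to 89.9 ± 12.9 CPM (adjusted p = 9.6e-08, log2 fold change 1.02 ± 0.10), and an oxygen-evolving enhancer protein of the 3-1 type (Bhs1409_019), held within 2-fold at 24.4 ± 3.90 and 34.5 ± 4.73 CPM. The remaining members, the apoprotein A1 of photosystem I and cytochrome b6, named here after their values were seen, were not called. In the Calvin cycle 9 of 10 genes were called at least 2-fold lower, and the share of reads went from 5.36 ± 0.626% to 0.222 ± 0.00863%. Its exception was a transketolase (Bhs2964_002), which gave 6.39, 3.97 and 3.82 CPM in hydrated and 682, 699 and 726 CPM in desiccated libraries (adjusted p = 2.0e-18, log2 fold change 7.19 ± 0.12), with 1479 ± 75.8 CPM at 70% RWC.

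Chlorophyll synthesis and breakdown went in opposite directions in part, where 42.4% of all tested genes were called higher and 41.5% lower. Of 14 chlorophyll synthesis genes, 13 were called lower and 1 higher (median -1.41). Magnesium chelatase (Bhs68_009), the first enzyme of the chlorophyll branch, fell from 1837 ± 32.8 to 52.6 ± 5.38 CPM (adjusted p = 1.1e-18, log2 fold change -5.13 ± 0.081). Porphobilinogen synthase (Bhs448_030), which serves heme and chlorophyll alike, was the member called higher, by less than 2-fold, from 283 ± 13.4 to 416 ± 15.5 CPM (adjusted p = 1.2e-07, log2 fold change 0.56 ± 0.060). Of 10 genes of chlorophyll breakdown and senescence, 6 were called higher and 4 lower. The stay-green protein 1 (Bhs427_016), which opens chlorophyll breakdown, rose from 38.4 ± 0.688 to 379 ± 36.2 CPM (adjusted p = 2.6e-16, log2 fold change 3.30 ± 0.083), and a second stay-green gene (Bhs80_031), low in both states, fell from 5.35 ± 1.55 to 0.408 ± 0.0110 CPM (adjusted p = 1.6e-07, log2 fold change -3.66 ± 0.40). Pheophorbide a oxygenase 2 (Bhs1906_004) was held within 2-fold at 285 ± 30.3 and 463 ± 40.7 CPM and was called higher (adjusted p = 4.4e-07, log2 fold change 0.70 ± 0.082). Photorespiration, which recycles the product of Rubisco's reaction with oxygen, was called lower in 10 and higher in 4 of 16 genes (median -0.82), or in 7 and 4 of 13 without phosphoglycerate kinases. Serine hydroxymethyltransferases, which convert glycine to serine, parted: the mitochondrial Bhs2380_003 fell from 1295 ± 79.9 to 105 ± 5.96 CPM (adjusted p = 1.0e-17, log2 fold change -3.63 ± 0.071), and Bhs126_030 rose from 57.6 ± 7.31 to 318 ± 6.27 CPM (adjusted p = 1.7e-14, log2 fold change 2.46 ± 0.084).

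Cell wall and cell surface proteins made up 5 of the 10 largest decreases among genes with an informative description. Among all tested genes 41.5% were called lower, 29.7% at least 2-fold, and 42.4% higher. Of 97 tested genes of wall loosening and synthesis, 72 were called lower, 66 of them at least 2-fold, and 20 higher (median -3.18). Their share of reads was 1.40 ± 0.0722% in hydrated leaves, 1.16 ± 0.136% at 70% RWC and 0.427 ± 0.0125% at 10% RWC. A repetitive proline-rich wall protein (Bhs6_089) gave 92.1, 144 and 126 CPM in hydrated leaves and no read in any desiccated library, at least 878-fold lower against the floor of 3 reads summed over the desiccated libraries (adjusted p = 1.0e-05). A fasciclin-like arabinogalactan protein (Bhs3967_008), a cell surface glycoprotein, gave 100.001, 122 and 126 CPM and likewise no desiccated read, at least 847-fold lower (adjusted p = 3.2e-15). Pectinesterases, which alter wall pectin, fell: Bhs176_040 gave 880.0, 1107 and 1033 CPM in hydrated and 1.997, 0.140 and 0.135 CPM in desiccated libraries (adjusted p = 5.2e-08, log2 fold change -10.32 ± 0.40), and Bhs1115_028 fell from 246 ± 25.9 to 0.0888 ± 0.154 CPM (adjusted p = 1.1e-16, log2 fold change -11.15 ± 0.24). A tyrosine-rich hydroxyproline-rich glycoprotein (Bhs5_128), a structural wall protein, fell from 1688 ± 211 to 1.25 ± 1.57 CPM (adjusted p = 1.6e-07, log2 fold change -10.36 ± 0.43). Against this direction, the extensin Bhs4_122 gave 18.1, 21.003 and 22.8 CPM in hydrated and 756, 826 and 817 CPM in desiccated libraries (adjusted p = 1.3e-18, log2 fold change 5.28 ± 0.085), and the cellulose synthase-like D3 gene Bhs194_026 rose from 42.4 ± 3.68 to 487 ± 10.1 CPM (adjusted p = 1.9e-17, log2 fold change 3.52 ± 0.072).

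The remaining genes among these 10 decreases were of several kinds. A phosphate-induced protein (Bhs771_074) fell from 176 ± 28.6 to 0.0444 ± 0.0769 CPM (adjusted p = 1.6e-14, log2 fold change -11.45 ± 0.30), and peroxidase 21 (Bhs451_033), a secreted peroxidase, from 103 ± 3.87 to 0.0444 ± 0.0769 CPM (adjusted p = 1.3e-16, log2 fold change -10.68 ± 0.26). An aquaporin-like protein (Bhs1906_008), a GDSL esterase/lipase (Bhs183_007) and an aspartic proteinase of the nepenthesin type (Bhs547_020) had no read in any desiccated library. Against the floor they were at least 196-fold, 196-fold and 174-fold lower, from hydrated means of 26.9 ± 5.30, 26.9 ± 3.77 and 23.6 ± 1.60 CPM.

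In most other groups tied to growth, lower calls also outnumbered higher ones, while over all tested genes they were 41.5 and 42.4%. Phenylpropanoid and flavonoid enzymes, which make lignin precursors and pigments, were called lower in 56 and higher in 14 of 74 (median -2.22). Phenylalanine ammonia-lyase (Bhs160_034), which opens the pathway, gave 852, 941 and 889 CPM in hydrated and 8.92, 5.33 and 8.51 CPM in desiccated libraries (adjusted p = 1.7e-17, log2 fold change -6.87 ± 0.12), whereas a flavonoid 3-hydroxylase (Bhs8193_002) rose from 304 ± 24.1 to 1229 ± 175 CPM (adjusted p = 8.4e-10, log2 fold change 2.02 ± 0.11). Auxin response genes were called lower in 45 and higher in 19 of 70, and cuticle and wax genes lower in 19 and higher in 6 of 30. The wax enzyme 3-ketoacyl-CoA synthase 6 (Bhs4608_002) fell from 478 ± 24.5 to 0.356 ± 0.504 CPM (adjusted p = 1.1e-15, log2 fold change -10.30 ± 0.21). Of 12 aquaporins, the water channels, 9 were called lower and 3 higher (median -3.72), leaving out an S-acyltransferase and a TIP41-like protein that share the search words. The tonoplast aquaporin Bhs120_040 fell from 2544 ± 665 to 502 ± 125 CPM (adjusted p = 1.8e-04, log2 fold change -2.34 ± 0.29), after 5292 ± 974.8 CPM at 70% RWC. Histones were called lower in 20 and higher in 5 of 30, and actins and tubulins, without their chaperones, lower in 14 and higher in 4 of 21. Actin 1 (Bhs455_002) fell from 1509 ± 9.83 to 565 ± 17.6 CPM (adjusted p = 1.6e-13, log2 fold change -1.42 ± 0.057). Cell cycle and DNA replication gave opposite medians by membership: 0.19 with 50 higher and 42 lower of 117 as found by the search words, and -0.68 with 19 higher and 34 lower of 66 without reverse transcriptases and other members of another kind. Proteases were called lower in 40 and higher in 13 of 58, yet the cysteine proteinase Bhs8865_003 gave 332, 369 and 374 CPM in hydrated and 3094, 3698 and 3549 CPM in desiccated libraries (adjusted p = 2.7e-16, log2 fold change 3.27 ± 0.083), and the share of reads of the group was 0.472 ± 0.0131% in hydrated and 0.725 ± 0.0360% in desiccated leaves.

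Held genes were frequent in protein synthesis, protein turnover and respiration. The held rule needs a narrow interval, and held genes had a median of 29.3 CPM in hydrated leaves, beside 19.5 CPM for all tested genes. The part of read depth in the held shares was not tested. Beside 31.6% of all tested genes, 21 of 32 proteasome genes (65.6%), 56 of 97 cytosolic ribosomal protein genes (57.7%), 52 of 93 translation factors and tRNA synthetases (55.9%) and 22 of 46 genes of mitochondrial respiration (47.8%) were held within 2-fold. Within these limits most cytosolic ribosomal protein genes still changed, since 66 were called lower and 11 higher (median -0.56). The 60S protein L6 (Bhs10_003) gave 389.9, 346 and 315 CPM in hydrated and 304, 314 and 291 CPM in desiccated libraries, and a translation initiation factor (Bhs5951_001) gave 563, 529.9 and 527 and 740.0, 659.8 and 649 CPM. Ribosomal proteins of plastids and mitochondria were held in 7 of 27 and at least 2-fold lower in 16. The chloroplast elongation factor TuB (Bhs5_068) fell from 1083 ± 77.2 to 266 ± 2.12 CPM (adjusted p = 7.1e-15, log2 fold change -2.03 ± 0.065), as did the chloroplast protein S13 (Bhs387_045) from 274 ± 11.4 to 102 ± 3.05 CPM (adjusted p = 6.7e-13, log2 fold change -1.43 ± 0.064). Pentatricopeptide repeat proteins, which process organelle RNA, were held in 93 of 239, at least 2-fold higher in 41 and at least 2-fold lower in 54.

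The 10 held genes with the most reads among those with an informative description were of several kinds. Catalase 3 (Bhs4509_001), which breaks down hydrogen peroxide, gave 3213, 3408 and 3284 CPM in hydrated and 3382, 3772 and 3678 CPM in desiccated libraries and was not called (adjusted p = 0.098, log2 fold change 0.13 ± 0.071). At 70% RWC it had been at 1825 ± 151 CPM. Naphthoate synthase (Bhs6046_008), of the pathway to vitamin K1 in chloroplasts, also had its lowest mean at 70% RWC, with 2251 ± 159 CPM in hydrated leaves, 830.1 ± 44.2 at 70% RWC and 3318 ± 245 at 10% RWC. Adenosylhomocysteinase (Bhs2622_002), which clears the product of methylation reactions, had 1435 ± 29.9, 797 ± 30.7 and 1690.0 ± 89.6 CPM in the same order. Pathogenesis-related protein 10 (Bhs1973_001) had its highest mean at 70% RWC, with 4006 ± 5.64, 8570.4 ± 170.0 and 2217 ± 61.2 CPM, and its log2 fold change of -0.85 ± 0.059 put it close to the limit of the held class. The heat shock cognate HSC70 (Bhs95_009), a constitutive chaperone, gave 4324, 3555 and 3579 CPM in hydrated and 2516, 2341 and 2277 CPM in desiccated libraries (adjusted p = 2.8e-07, log2 fold change -0.68 ± 0.078). Fructose-bisphosphate aldolase (Bhs7444_002), a glycolytic enzyme, gave 940.5, 967 and 934 and 1061, 1016 and 970.4 CPM and was not called (adjusted p = 0.14, log2 fold change 0.10 ± 0.062). The FtsH proteases Bhs7_010 and Bhs238_025, which degrade damaged photosystem proteins in chloroplasts, were held at 905 ± 36.6 and 898 ± 25.4 CPM in desiccated leaves, from 1348 ± 53.5 and 1163 ± 30.8 CPM in hydrated leaves. The last of the 10, ABC transporter F family member 5 (Bhs1_003), of a family that binds ribosomes rather than membranes, had 1109 ± 118 and 1282 ± 105 CPM.

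Splicing, chromatin, ubiquitin ligase and autophagy genes were more often called higher than lower. Over all tested genes 42.4% were called higher, 41.5% lower and 31.6% held. Of 50 splicing genes, 36 were called higher and 9 lower, and 22 were held (median 0.64). Their share of reads was 0.311 ± 0.0212% in hydrated leaves, 0.335 ± 0.00701% at 70% RWC and 0.752 ± 0.0210% at 10% RWC. The splicing factor 8 gene (Bhs152_009), at the core of the spliceosome, gave 327, 302 and 309 CPM in hydrated and 1094, 1084 and 1121 CPM in desiccated libraries (adjusted p = 2.2e-14, log2 fold change 1.81 ± 0.064). The U5 helicase of 200 kDa (Bhs200_062), which unwinds spliceosomal RNA, gave 269, 259 and 246 and 1059.8, 1125 and 1132 CPM (adjusted p = 6.8e-15, log2 fold change 2.10 ± 0.068). Chromatin modifiers were called higher in 33 and lower in 10 of 51 (median 0.79), with the histone acetyltransferase HAC1 (Bhs348_015) rising from 106 ± 3.99 to 325 ± 4.10 CPM (adjusted p = 7.4e-14, log2 fold change 1.62 ± 0.062). Ubiquitin ligases, which attach ubiquitin to chosen proteins, were called higher in 72 and lower in 40 of 126. UPL4 (Bhs7077_004) gave 134, 134 and 125 CPM in hydrated and 1413, 1370.2 and 1375 CPM in desiccated libraries (adjusted p = 9.3e-18, log2 fold change 3.40 ± 0.066), and BRE1A (Bhs710_012) rose from 100.3 ± 12.7 to 1322 ± 89.5 CPM (adjusted p = 1.3e-16, log2 fold change 3.72 ± 0.089). XBAT31 (Bhs451_069) fell from 463 ± 12.2 to 29.1 ± 2.74 CPM (adjusted p = 1.4e-17, log2 fold change -3.99 ± 0.080). Of 6 autophagy genes, which serve bulk degradation, 5 were called higher and 0 lower. Autophagy protein 9 (Bhs12_112) rose from 44.7 ± 1.11 to 275 ± 7.33 CPM (adjusted p = 1.5e-16, log2 fold change 2.62 ± 0.064).

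**Figure D4:**
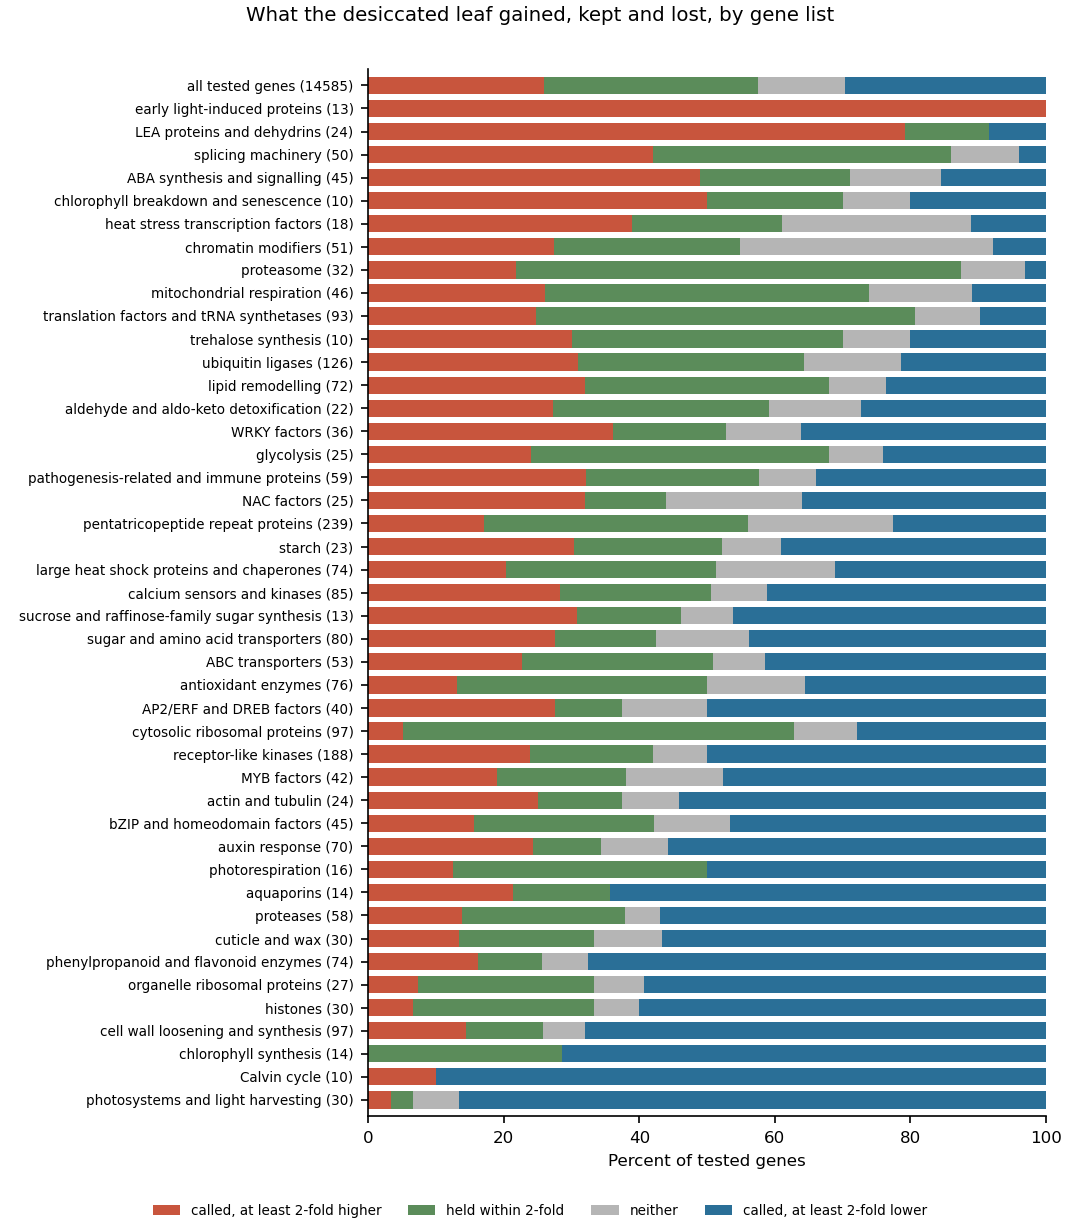
Percent of the tested genes of each gene list (horizontal axis, number of tested genes in brackets) called at least 2-fold higher, held within 2-fold, meeting none of the rules, and called at least 2-fold lower in leaves at 10% RWC against hydrated leaves. Against all 14585 tested genes in the first bar, ELIPs and LEA proteins show the widest gaining parts, proteasome and cytosolic ribosomal proteins the widest held parts, and photosystem and Calvin cycle genes the widest losing parts.

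Several groups of primary metabolism and transport stood near the shares of all tested genes, 42.4% called higher, 41.5% lower and 31.6% held. The counts of higher and lower calls in respiration, ABC transporters and immune proteins were near them. Of 46 respiration genes, 19 were called higher and 17 lower (median 0.13). Aconitase (Bhs1945_008), of the citric acid cycle, rose from 399 ± 9.98 to 1003 ± 9.15 CPM (adjusted p = 4.6e-13, log2 fold change 1.33 ± 0.058), and the mitochondrial ATP synthase subunit beta (Bhs161_027) fell from 221 ± 3.37 to 85.7 ± 3.25 CPM (adjusted p = 4.8e-13, log2 fold change -1.37 ± 0.060). Glycolytic genes were called higher in 9 and lower in 12 of 25, and 11 were held. Glyceraldehyde-3-phosphate dehydrogenases split: the C type Bhs1181_006 rose from 509.5 ± 53.0 to 1321 ± 78.2 CPM (adjusted p = 2.3e-11, log2 fold change 1.37 ± 0.079), and Bhs734_015 fell from 1654 ± 179 to 283 ± 51.1 CPM (adjusted p = 8.1e-09, log2 fold change -2.55 ± 0.14). Starch genes were called higher in 7 and lower in 13 of 23, and beside granule-bound starch synthase 1 the starch-degrading beta-amylase 1 (Bhs866_005) rose from 591 ± 23.1 to 1609.9 ± 109 CPM (adjusted p = 1.4e-12, log2 fold change 1.45 ± 0.068), while ADP-glucose pyrophosphorylase (Bhs149_031), which commits carbon to starch, fell from 505 ± 72.3 to 171 ± 14.6 CPM (adjusted p = 4.2e-10, log2 fold change -1.57 ± 0.096). The starch list held 0.493 ± 0.0301% of hydrated and 1.03 ± 0.0302% of desiccated reads. Lipid genes were called higher in 39 and lower in 22 of 72. Phospholipase D Bhs3093_005, a membrane lipid hydrolase, fell from 349 ± 13.9 to 12.1 ± 1.76 CPM (adjusted p = 4.9e-18, log2 fold change -4.85 ± 0.089), whereas phospholipase D1 (Bhs152_023) was held at 414 ± 24.8 and 515 ± 31.1 CPM. Sugar and amino acid transporters were called higher in 30 and lower in 42 of 80, while their list held 0.352 ± 0.00337% of hydrated and 0.550 ± 0.0156% of desiccated reads. A sucrose transporter (Bhs865_013) gave 51.1, 50.8 and 44.9 CPM in hydrated and 1594, 1766 and 1702 CPM in desiccated libraries (adjusted p = 1.3e-18, log2 fold change 5.11 ± 0.082), and a nitrate transporter (Bhs4205_002) gave 434, 515 and 497 and 14.2, 14.2 and 13.2 CPM (adjusted p = 2.4e-18, log2 fold change -5.12 ± 0.088). ABC transporters were called higher in 23 and lower in 25 of 53, and 22 (41.5%, beside 29.7% of all tested genes) were at least 2-fold lower. Pathogenesis-related and immune proteins were called higher in 22 and lower in 25 of 59, with osmotin (Bhs2344_009), an antifungal protein induced by osmotic stress, rising from 294 ± 63.8 to 3448 ± 655 CPM (adjusted p = 1.5e-06, log2 fold change 3.55 ± 0.23).

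Members of every transcription factor family listed here moved both ways, as did all tested genes. The counts of WRKY and NAC factors were near the shares of all tested genes, 42.4% called higher and 41.5% lower. WRKY factors were called higher in 16 and lower in 14 of 36. WRKY6 (Bhs51_098), known from senescence in Arabidopsis, gave 98.9, 92.4 and 87.4 CPM in hydrated and 1159.6, 1162 and 1156 CPM in desiccated libraries (adjusted p = 9.0e-18, log2 fold change 3.64 ± 0.071), and the WRKY30 match (Bhs45_140) fell from 137 ± 4.98 to 1.09 ± 0.360 CPM (adjusted p = 8.4e-18, log2 fold change -6.95 ± 0.13) although it had stood at 133 ± 6.43 CPM at 70% RWC. MYB factors were called higher in 12 and lower in 23 of 42. Even genes with the same best match differed: 2 MYB44 genes rose, Bhs1239_024 from 18.3 ± 2.30 to 190.2 ± 39.4 CPM (adjusted p = 2.9e-08, log2 fold change 3.38 ± 0.19) and Bhs887_016 from 2.08 ± 0.335 to 111 ± 7.52 CPM (adjusted p = 6.2e-17, log2 fold change 5.73 ± 0.13), and another (Bhs6009_008) fell from 66.9 ± 10.7 to 10.5 ± 1.49 CPM (adjusted p = 8.6e-12, log2 fold change -2.67 ± 0.14). AP2/ERF and DREB factors were called higher in 14 and lower in 22 of 40, NAC factors were called higher in 10 and lower in 10 of 25, and bZIP and homeodomain factors were called higher in 14 and lower in 26 of 45. A dehydration responsive element binding protein (Bhs177_007), of the family that switches on drought genes, rose from 5.41 ± 0.624 to 258 ± 9.505 CPM (adjusted p = 1.4e-18, log2 fold change 5.56 ± 0.091). The NAC gene Bhs1_125 rose from 7.55 ± 1.41 to 80.5 ± 6.95 CPM (adjusted p = 3.2e-14, log2 fold change 3.42 ± 0.12), and the homeodomain gene BEL1-like 4 (Bhs12405_001) fell from 157 ± 15.9 to 11.7 ± 1.57 CPM (adjusted p = 7.1e-14, log2 fold change -3.74 ± 0.12).

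The gene ontology columns of the authors' files assign a component to 7087, a function to 7278 and a process to 6532 of the tested genes. Membership in a term does not rest on search words, but part of the terms named here were picked by them. Among the named terms with at least 30 tested genes, wide losses were seen in antioxidant activity, where 28 of 37 genes (75.7%, beside 29.7% of all tested genes) were called at least 2-fold lower, in phenylpropanoid biosynthesis with 21 of 31 (67.7%), and in the extracellular region with 91 of 141 (64.5%). The cell wall lost 70 of 121 (57.9%) and the chloroplast stroma 19 of 33 (57.6%). The antioxidant term differed from the antioxidant list made from descriptions, in which 27 of 76 enzymes (35.5%) were called at least 2-fold lower and 28 were held. The term's lowest log2 fold change, -10.68, equals that of the secreted peroxidase 21. The smaller terms of photosynthesis did not share a direction. 8 of 8 genes of photosystem I and 15 of 17 of photosystem II were called at least 2-fold lower, and light harvesting held 8 genes called lower and 2 higher of 11. Light reaction held 4 called higher and 1 lower of 5, photosynthesis 2 and 2 of 5, and the chloroplast envelope 7 and 5 of 13. All 5 genes of the thylakoid term were called lower. Larger related terms, named here after their values were seen, fell in most genes. The chloroplast thylakoid held 154 called lower and 47 higher of 222, and the plastid envelope 156 lower and 68 higher of 256. Gains were frequent in response to carbohydrate stimulus, with 25 of 53 genes (47.2%, beside 25.9%) called at least 2-fold higher, in response to UV with 13 of 30 (43.3%) and in gametophyte development with 34 of 79 (43.0%). The cullin-RING ubiquitin ligase complex gained 32 of 82 (39.0%) and lost 6.

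Terms with the widest held parts were those of protein synthesis and traffic inside the cell. Aminoacyl-tRNA ligase activity, which loads amino acids onto tRNA, was held within 2-fold in 24 of 37 genes (64.9%, beside 31.6%), the endomembrane system in 27 of 45 (60%), and organelle organization in 27 of 50 (54.0%). Protein transport and translation factor activity were held in 45 of 86 and 43 of 83, and the small proteasome complex term in 9 of 10. The large ribosomal subunit was held in 20 of 42 (47.6%), but the ribosome term in only 19 of 54 (35.2%), with 20 (37.0%) at least 2-fold lower. Terms named for abscisic acid did not share a direction: of 21 genes of ABA-mediated signalling, 11 were called higher and 8 lower. Response to water deprivation held 9 genes called higher and 1 lower of 14, whereas the larger response to osmotic stress held 86 and 73 of 188. The chlorophyll biosynthesis term held 6 genes called higher and 5 lower of 12, unlike the list made from descriptions, in which 13 of 14 were lower. Terms overlap in their genes, and these counts are descriptions without a test of a term.

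**Figure D5:**
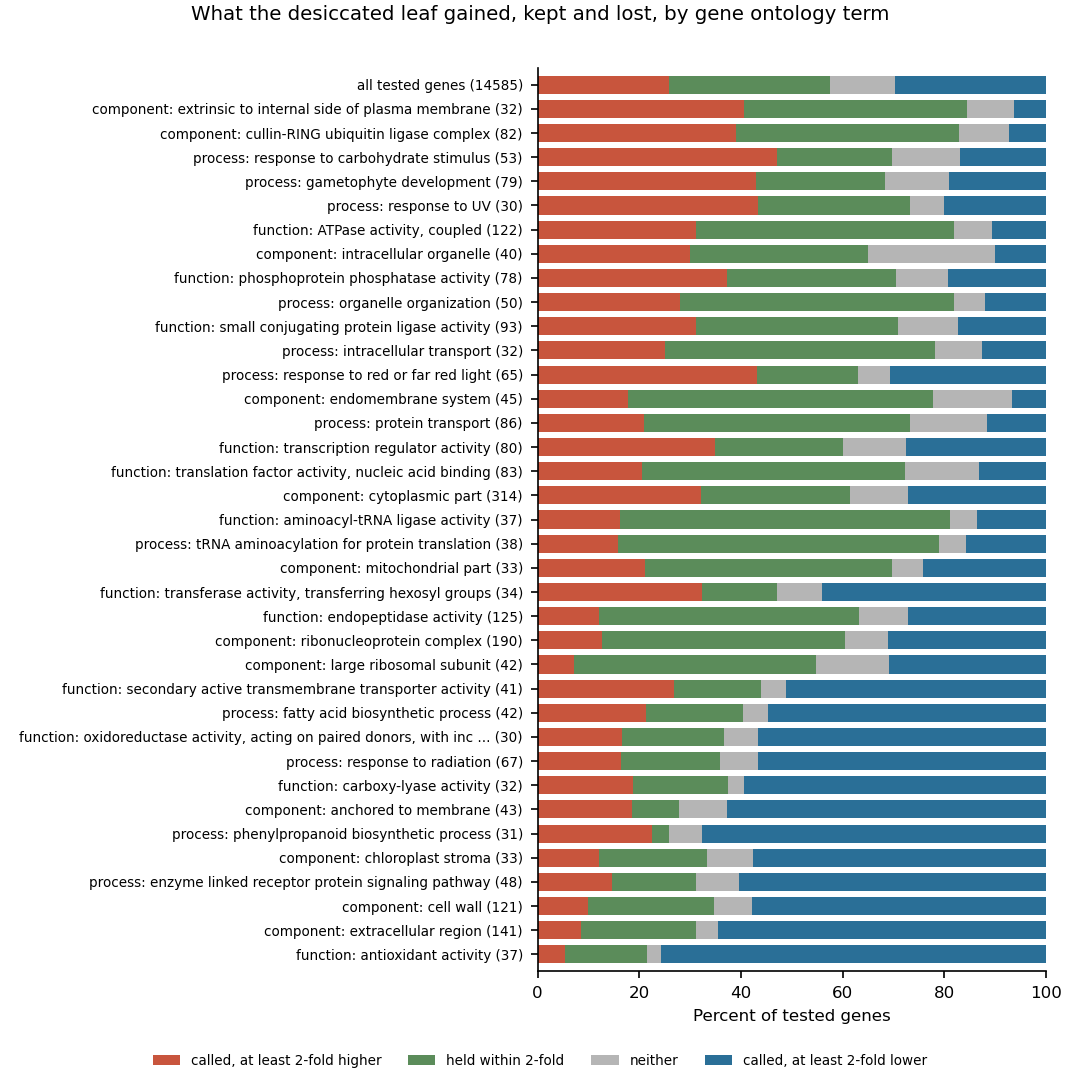
Percent of the tested genes of each gene ontology term (horizontal axis, number of tested genes in brackets) called at least 2-fold higher, held within 2-fold, meeting none of the rules, and called at least 2-fold lower in leaves at 10% RWC against hydrated leaves. Terms run from those with the most gains relative to losses at the top to antioxidant activity at the bottom, where 28 of 37 genes were called at least 2-fold lower, beside all 14585 tested genes in the first bar.

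Few genes were gained from near silence or lost to it. A gene was taken as switched on when it was called higher, with a mean under 1 CPM in hydrated and at least 10 CPM in desiccated leaves, and as switched off in the reverse case. By these limits 111 genes (0.761% of those tested) were switched on and 487 (3.34%) were switched off. Stricter limits of under 0.5 and at least 20 CPM left 44 and 146. Switched on were 6 of the 24 tested LEA proteins or dehydrins and 5 of the 13 ELIPs. Switched off were 22 of the 97 tested wall genes, 20 of the 188 receptor-like kinases and 10 of the 74 phenylpropanoid or flavonoid enzymes. So were 9 of the 58 proteases and 8 of the 80 sugar or amino acid transporters. The switched-on genes held 0.00542 ± 0.000785% of hydrated and 1.35 ± 0.0774% of desiccated reads, and 1.01 ± 0.0434% already at 70% RWC. The switched-off genes held 2.10 ± 0.0670% of hydrated, 0.313 ± 0.00343% of 70% RWC and 0.0196 ± 0.00237% of desiccated reads. At the level of single reads both states shared most of their repertoire. A read was present in all 6 libraries for 14799 genes, or 82.9% of the genes read in every library of either state. Another 337 genes (1.89%) had no hydrated read and a read in every desiccated library, with a median of 8 reads over the 3, and 611 (3.42%) had a read in every hydrated and none in any desiccated library, with a median of 19. The most-read gained gene was ELIP Bhs2978_003, with 2011, 2295 and 2323 reads in the desiccated libraries. Next came Bhs38803_001, which has no database match, with 1482, 1568 and 1505 reads, and Bhs1209_012, matched to a predicted protein, with 1419, 1360 and 1416. The most-read lost gene was the proline-rich wall protein Bhs6_089, with 721, 1015 and 854 reads in the hydrated libraries. A conserved hypothetical protein (Bhs10_045) with 679, 582 and 563 reads and the unmatched Bhs1689_002 with 365, 541 and 513 were lost as well. At the median counts of these sets an absent transcript could mostly not be distinguished from a rare one.

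The classes differed in properties that were not criteria of the sorting. Coding length still bears on the sorting, since CPM and read counts rise with it. The median coding length was 1170 bases over all tested genes, 666 for the switched-on genes, 1224 for the switched-off genes, 1235 for the genes called at least 2-fold higher, 1125 for those at least 2-fold lower and 1209 for the held genes. A database match was found for 97% of all tested genes and 91.9% of the switched-on genes, and a gene ontology term for 68.9% of all, 74.1% of the held, 71.2% of the losing, 62.1% of the gaining and 53.2% of the switched-on genes. Neighbouring genes on the authors' scaffolds fell into the same class somewhat more often than the share of that class among all genes. Of the tested neighbours of genes called at least 2-fold higher, 30.5% were in that class, against 25.6% of all genes with a tested neighbour, and for the losing class the values were 32.9% and 30%. Held genes showed 33.2% against 32.4%. Switched-on genes stood beside another switched-on gene in 8 of 131 cases (6.11%, against 0.713%), from 4 pairs. The longest run of genes called at least 2-fold higher was 8 genes on scaffold 109, between positions 478846 and 528680. It included HSP18.1A and the small heat shock protein Bhs109_078. A run of 5 on scaffold 152, from 197339 to 247707, held 3 LEA genes, among them the group 3 LEA gene with the most desiccated reads. No source used here names the assembly version of these scaffolds.

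Markers of leaf cell types moved with these results. The label of leaf tissue matched the hydrated libraries in that mesophyll markers, the Rubisco small subunit and chlorophyll a/b binding proteins, held the share of reads given above, while seed markers held 0.0000143 to 0.000121%. Of all tested genes, 41.5% were called lower, 29.7% at least 2-fold, and 42.4% higher. In desiccated leaves all 8 mesophyll markers were called at least 2-fold lower. All 3 guard cell markers, MYB60, SLAC1 and FAMA, were called lower, and they held 0.00351 to 0.00424% of hydrated and 0.000680 to 0.000858% of desiccated reads. Epidermis markers were called lower in 8 and higher in 1 of 11 and held 0.0785 to 0.0861% of hydrated and 0.00965 to 0.0117% of desiccated reads, and both tested leaf hair markers were lower. The only tested seed marker, an 11S globulin, was called higher, and seed markers in all held 0.000544 to 0.000736% of desiccated reads. The 3 phloem markers were called higher, with 0.00682 to 0.00742% of hydrated and 0.172 to 0.186% of desiccated reads, mostly of the sucrose transporter Bhs865_013, while phloem protein 2 (Bhs7883_005) was held at 5.36 ± 2.07 and 7.75 ± 0.693 CPM. Its call as higher (adjusted p = 0.036, log2 fold change 0.51) was lost in 9 of 14 alternatives, with adjusted p from 0.051 to 0.21 there. Xylem markers were called lower in 7 and higher in 4 of 13, with laccase 14 (Bhs649_092) rising from 50.5 ± 2.27 to 1301 ± 138 CPM and xylem cysteine proteinase 2 (Bhs98_025) falling from 108 ± 1.39 to 1.13 ± 0.283 CPM. They held 0.0282 to 0.0303% of hydrated and 0.135 to 0.158% of desiccated reads. Root markers were called lower in 9 and higher in 2 of 11, at 0.0404 to 0.0421% and 0.0834 to 0.0881% of reads, and flower and pollen markers lower in 4 and higher in 2 of 7, at 0.0291 to 0.0299% and 0.0119 to 0.0130%. Several of these markers belong to the photosynthesis, wax and transport lists above. The part of cell make-up in the changes of those lists was not tested.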

How the data were processed

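RNA was extracted with Trizol from leaves of potted plants and sequenced after standard Illumina library preparation, per the labels' protocols. Per the file headers, the authors deposited the count of uniquely aligned reads per gene and the percent of each gene covered by reads. The counts sum to the header's total in 9 of 9 files. Genes missing from a file were set to 0. Aligner, assembly version, counting tool and strandedness are not given in the sources used here. Reads of near-identical family members (LEA, ELIP, Rubisco, histones) are uncertain under unique counting, and antisense reads cannot be told apart. Names and gene ontology terms are the authors' best matches, and gene identifiers are printed without the ending that all share.

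Counts were fitted in edgeR 4.0.16 (R 4.3.3, limma 3.58.1) with TMM scaling and filterByExpr, using the robust quasi-likelihood model on the 9 libraries, with 1 coefficient for each state and without a replicate block. The Benjamini-Hochberg adjusted p threshold was 0.05. The SE is the size of the log2 fold change over the square root of F, and the held rule used its 95% interval. CPM use TMM factors, and figures add 0.1. The script was tested on simulated data. Depth sets the floor of 3 reads used for genes at 0 in a group. DESeq2 1.42.0, other scalings and left-out libraries were alternatives.

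The comparison, the 48 functional and 9 marker lists (search words on descriptions) and the rules were chosen with earlier results of these data known. Named genes have an informative description. They are the 10 largest called increases and decreases with groups that do not overlap and at least 20 CPM in the higher state, the 10 with the most reads in each state, the 10 held genes with the most reads, and from each list up to 2 members at least 2-fold higher, 2 lower and 1 held, by mean CPM, of which some are left out. Per ontology column and class, the 4 terms of at least 30 genes with the highest share were taken, with overlapping terms passed over. Further terms were picked by search words on those columns, and chloroplast thylakoid and plastid envelope after their values were seen. Lists without members of another kind were counted after the values were seen.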

Additional observations from a re-analysis of the deposited data

How the results depend on the processing

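Counts of genes called, called in each direction, called at least 2-fold in each direction, held and switched kept within 1.5 times of their values under every change of scaling, filter, test, replicate block or left-out library. The exceptions were changes of the limits themselves: 1980 genes were held within 1.5-fold, and 44 and 146 genes were switched on and off under the stricter limits. Leaving out each library in turn gave 12038 to 12286 called genes, 6084 to 6199 higher and 5940 to 6087 lower, 3828 to 3876 at least 2-fold higher and 4357 to 4464 lower, 4307 to 4470 held, 103 to 116 switched on and 465 to 501 switched off. DESeq2 called 11889 genes, of which 5743 higher and 6018 lower were shared with edgeR. Fitting the 6 libraries alone shifted the median log2 fold change by -0.11 and gave 5719 higher and 6358 lower. Without the low-count filter 13646 genes were called. With the replicate block 12621 genes were called and 4918 held. The numbers pair no samples by the labels, and deviations of same-numbered libraries correlated at 0.274, 0.129 and 0.078. Hydrated replicate 3 correlated more with 10% RWC replicate 2 (0.103). For the 279 named genes, 3886 values under the alternatives kept direction and size class and 20 lost the held class, in 4 genes (Bhs1973_001, Bhs197_008, Bhs7883_005 and Bhs7_154), and no direction reversed. By adjusted p alone, 11 named genes lost a call as higher or lower in 56 values, among them Bhs7883_005 and Bhs1_003 in 9 of 14 alternatives each. Of the values of lists and terms, 264 and 385 moved by more than 1.5 times or the stated spread, and the cause was not tested. Counts under the floor of 3 reads limit what can be called absent.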
